A study of Mus musculus with 8 samples.

Results

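The T cell receptor loci were examined for differences in open chromatin between hematopoietic stem cells (HSCs) of old and young mice. T cells build their receptors from 4 gene loci, Tcra, Tcrd, Tcrb and Tcrg. Members were all peaks of the deposited table that lay fully inside 1 of 3 position windows of the mouse build mm9. These windows were chromosome 14 from 53040000 to 54860000 (Tcra, with Tcrd nested inside it), chromosome 6 from 40835000 to 41515000 (Tcrb) and chromosome 13 from 19260000 to 19460000 (Tcrg). They held 269 of the 126871 peaks, with 201 in Tcra/Tcrd, 52 in Tcrb and 16 in Tcrg. Peaks were chosen by position, while the loci themselves were selected on earlier results of these same old and young counts. Counts and fold changes over the members are therefore given as a description.

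The assay was bulk ATAC-seq, in which a transposase cuts and tags open DNA, and the number of reads in a region tracks how open it was. There were 4 libraries from old and 4 from young C57BL/6 mice. Both groups were sorted from bone marrow as LSK CD150+ CD48- cells, a gate for HSCs that takes marrow cells without lineage markers that carry Sca-1 and Kit. The labels give no ages, sex or number of animals per library, nor whether replicates were separate mice. The p-values therefore rest on library-to-library spread that may be technical, and age and other differences between the groups cannot be told apart. In bulk samples, fewer cells of a type and less open chromatin per cell cannot be told apart either. Total counts ran from 4200905 to 5129684 per library, and the members took 0.128% of all counts. Over all tested peaks, in log2 CPM, old replicate 4 had a mean Pearson r of 0.919 within its own group and 0.907 across groups, whereas for the other 7 libraries these means were 0.935 to 0.944 within and 0.842 to 0.890 between groups. Its values are given beside the results it touches. Genes that mark HSCs, T cells or other cells the gate could hold were not analysed here, because no annotation of mm9 was used. The part of such cells in the results below was not tested.

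Receptor genes are assembled in developing T cells by cutting and joining one variable (V), in some loci one diversity (D) and one joining (J) segment, which are then spliced to a constant (C) region. The alpha and beta chains form the receptor of most T cells, and the gamma and delta chains form that of a smaller class. Segments become open to the recombinase in an order set by lineage and stage, and HSCs have not yet begun rearrangement. In mouse, Tcra carries a long array of V segments followed by the Tcrd segments, a row of J segments and its constant region. RefSeq names 130 Trav genes and 60 Traj genes on the build GRCm38. Of the Trav names, 40 carry the letter d and 34 the letter n after the family number, and all 34 of the latter match a d name (Trav12d-1 and Trav12n-1, for example). These paired names mark a block of V segments that the C57BL/6 genome carries more than once. RefSeq also places trypsinogen genes such as Prss1 and Prss2 inside Tcrb, olfactory receptor genes inside the start of Tcra, and Dad1, Moxd2 and Stard3nl as neighbours of Tcra, Tcrb and Tcrg. Which peak belongs to which segment or neighbour was not analysed here, since the builds differ, and no sequence is printed for the same reason.

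Summed over all 201 peaks, Tcra/Tcrd was less open in old HSCs. Levels are read counts scaled to a common library size (CPM), with TMM factors between libraries. Old replicates 1 to 4 had 872, 1010, 932 and 989 CPM, and young replicates 1 to 4 had 1131, 1073, 1230 and 1174 CPM. The groups did not overlap, and the old mean of 951 ± 61.9 CPM was 0.825 of the young mean of 1152 ± 66.3 CPM (SD, n = 4 each). Old replicate 4 lay among the other old libraries, and without it the ratio was 0.814.

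Tcrb differed less in its sum, at 223 ± 12 CPM in old libraries and 244 ± 14.3 CPM in young ones, a ratio of 0.911. Old libraries ran from 212 to 233 CPM and young ones from 231 to 258 CPM, so the groups overlapped. Tcrg had 64.9, 65.4, 56.0 and 51.5 CPM in old replicates 1 to 4 and 71.6, 57.9, 87.8 and 93.3 CPM in young replicates 1 to 4. Young replicate 2 lay within the old range there, and young replicates 3 and 4 were the highest of all 8 libraries. The ratio for Tcrg was 0.766. These sums were given no test.

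**Figure D1:**
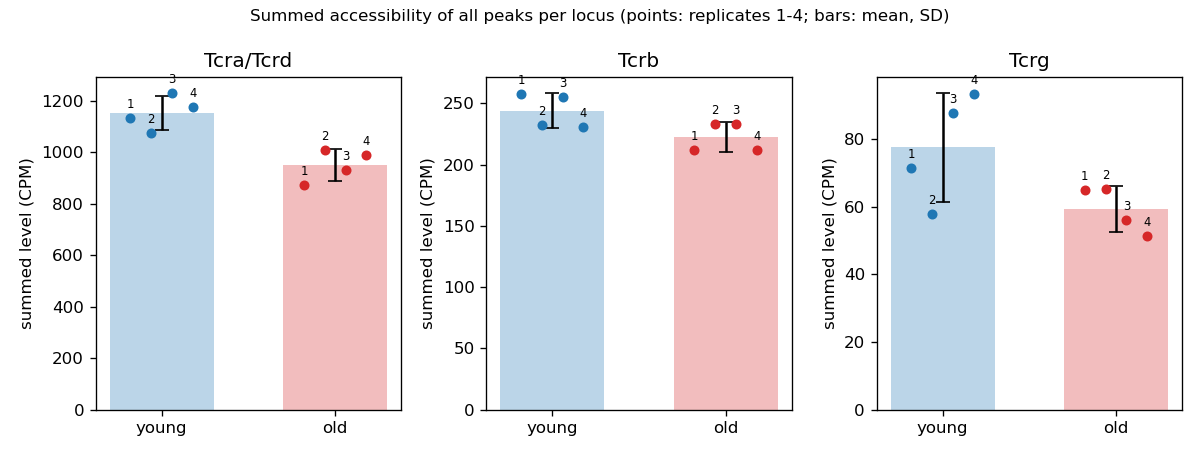
Summed level of all peaks in each locus window (y axis, CPM) for young and old libraries; points are single libraries numbered by replicate, bars are means and whiskers are SDs. The groups were apart for Tcra/Tcrd, where old libraries ran from 872 to 1010 CPM and young ones from 1073 to 1230 CPM, and overlapped for Tcrb and Tcrg.

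Peak by peak, the members that changed were mostly lower in old HSCs. Of the 269 members, 138 had enough counts to be tested, and the 131 others had mean levels of at most 2.41 CPM. Among those tested, 28 were lower and 8 higher in old libraries (edgeR quasi-likelihood test across all peaks, Benjamini-Hochberg adjusted p below 0.05). That is 20.3% lower and 5.80% higher, where 10.4% of all tested peaks were lower and 10% higher. In either direction 26.1% of tested members were called, against 20.5% of all tested peaks. The median log2 fold change, old minus young, was -0.30 over tested members and 0.01 over all tested peaks. Members that were tested are not all members, and a weak member may pass the count filter only through the group where it is higher. All 4 old libraries lay below all 4 young ones at 29 of the 138 tested members, and above them at 5. Over all tested peaks the shares were 10.6% and 10.5%, or 21.1% together. Of the 29, 14 were among the 26 tested peaks in the repeated pairs described below, whose partners are not independent. The rest were 11 of 82 tested Tcra/Tcrd peaks not in pairs, 3 of 24 in Tcrb and 1 of 6 in Tcrg.

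The number called higher was small and moved with single libraries. It was 3 without old replicate 2, 5 without old replicate 3 and 4 without either young replicate 1 or young replicate 4. The number called lower ran from 25 to 41 with each library left out, and was highest without old replicate 4. Over the whole table the peaks called lower moved the same way without that library, from 7634 to 11802, so this movement was not particular to the members.

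In Tcra/Tcrd most lower peaks lay in the part of the window up to 1213 kb from its start. From 0 to 607 kb, 7 of 25 tested peaks were lower and 0 higher. From 607 to 1213 kb, 13 of 47 were lower and 3 higher. From 1213 to 1820 kb, 4 of 36 were lower (11.1%, against 10.4% of all tested peaks) and 2 higher. Summed levels in that last part gave a ratio of 0.925 with overlapping groups. In the parts before it the ratios were 0.715 and 0.801, with the groups apart. Over the whole locus 24 of 108 tested peaks were lower and 5 higher, with a median log2 fold change of -0.33. Of the 108, 77 had a negative fold change. These counts take both peaks of the repeated pairs described below. Among the 26 tested peaks in pairs 12 were lower (46.2%, against 10.4% of all tested peaks), with a median log2 fold change of -0.63. These 12 include 5 pairs with both partners called, so they are not independent of each other. Among the 82 tested peaks not in pairs 12 were lower (14.6%) and 5 higher, with a median of -0.29, and the 20.7% called in either direction was next to the 20.5% of all tested peaks. Summed levels gave a ratio of 0.712 for peaks in pairs and 0.878 for the rest, with the groups apart in both. The lower peaks changed by -1.79 to -0.47 on the log2 scale, and at 21 of the 24 the groups did not overlap. These 24 peaks were picked by the test on the same libraries, so this separation adds no further support. The middle 50% of all 108 fold changes ran from -0.70 to 0.03. Tcrb had 3 lower and 3 higher among 24 tested peaks and a median of -0.04. Tcrg had 1 lower peak among 6 tested (16.7%), and a median of -0.20. Whether the loci differ from each other in these shares was not tested.

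**Figure D2:**
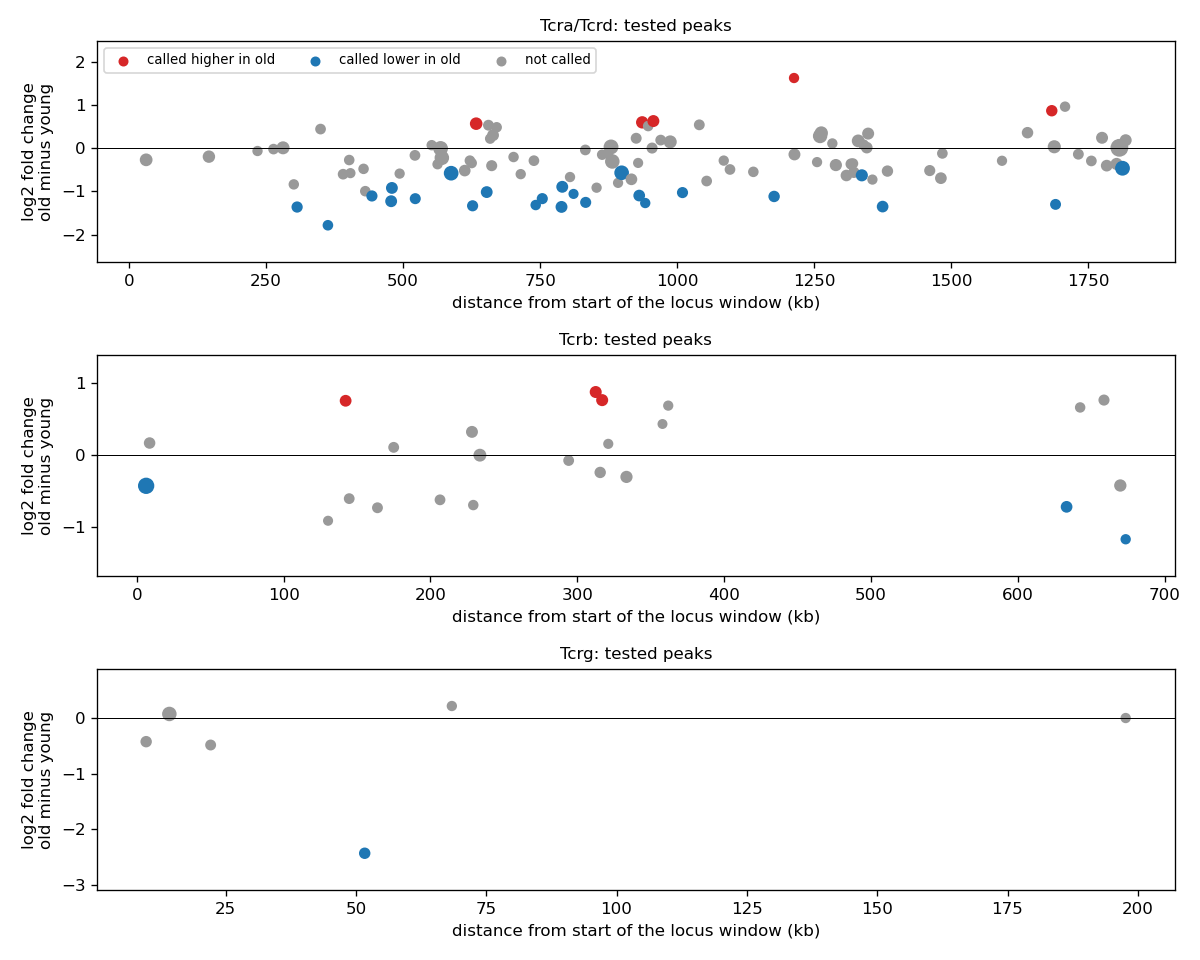
Log2 fold change of each tested peak, old minus young (y axis), against its distance in kb from the start of the locus window (x axis), for the 3 windows; blue points were called lower in old, red points higher, grey points were not called, and larger points are stronger peaks. Tcra/Tcrd holds 24 blue and 5 red points, with 4 of the blue ones beyond 1213 kb, while Tcrb holds 3 of each and Tcrg 1 blue.

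A large stretch of Tcra/Tcrd appeared in the table as a repeat of itself. In it, 21 pairs of peaks lay 310933 to 311181 bases apart (median 311041) with widths within 15% of each other. The first peaks of the pairs ran from 53463982 to 53628354 and their partners from 53775031 to 53939543, and 21 of the 25 members in the first stretch had such a partner. Counts of the partners were nearly the same library by library. At the strongest pair, the peak on chromosome 14 from 53608141 to 53608630 had 139, 206, 150 and 152 counts in old replicates 1 to 4 and 159, 162, 151 and 172 in young replicates 1 to 4. Its partner, from 53919309 to 53919795, had 136, 201, 162 and 161 counts in old and 151, 162, 152 and 176 in young libraries. Across the 8 libraries the mismatch of partners, as chi-square per degree of freedom, had a median of 0.147 and a maximum of 0.620. The same was computed for 747 other pairs of Tcra/Tcrd peaks of like width and like total. Their spacings were away from that of the repeat and below a fixed upper limit. The median there was 1.43, and 12.6% were at or below 0.620.

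The partners of a pair are therefore not independent measurements. Locus sums, window sums and the counts of called members given here count both, except where pairs are said to be summed. How reads matching both copies were assigned is not given in the sources used here, and whether the same reads were counted at both was not tested. The 42 peaks in pairs held 29.9% of the Tcra/Tcrd counts. Of the 12 called peaks among them, all lower, 10 formed 5 pairs with both partners called and the other 2 had a partner that was not called. With partners summed into 1 peak each, 25 members were lower and 8 higher over the 3 loci. In that fit 21 Tcra/Tcrd peaks were lower and 5 higher among 97 tested, and 9 of the 15 tested pair sums were lower (edgeR, adjusted p below 0.05). The spacing and width limits were set after the positions had been seen. Pairs of like width were counted at all spacings, with a mean of 0.702 pairs in each 300 bases of spacing. Copies at other spacings were not examined further.

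**Figure D3:**
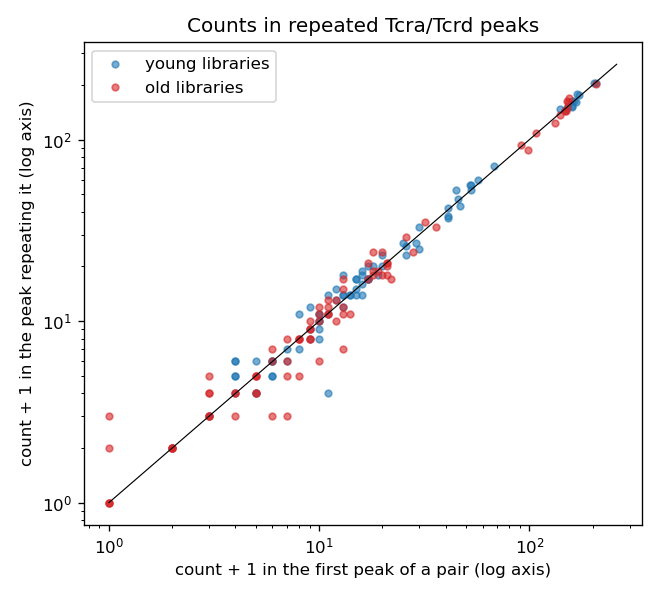
Counts plus 1 in the first peak of each of the 21 repeated pairs (x axis, log scale) against those in its partner (y axis, log scale), 1 point for each pair and library, with the line of equality; blue is young and red is old. Points follow the line over the whole range of counts in both groups.

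The repeated peaks also held the smallest p of the locus. The peak on chromosome 14 from 53828950 to 53829335 had 4.33, 4.84, 4.38 and 5.79 CPM in old replicates 1 to 4 and 13.8, 11.6, 13 and 11.8 CPM in young replicates 1 to 4. Every old library was below every young one. Its log2 fold change came to -1.36 ± 0.19 (SE), with an edgeR adjusted p of 6.38e-05. Its partner, from 53518013 to 53518398, fell from 12 ± 1.19 to 5.07 ± 0.464 CPM (SD, n = 4 each). As 1 summed peak the pair fell by 1.30 on the log2 scale (SE 0.14; edgeR adjusted p = 4.35e-06).

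A stronger pair fell by a smaller factor. The peak from 53627048 to 53628354 had 22.9, 31.3, 24.7 and 31.0 CPM in old libraries and 36.8, 42.7, 41.2 and 44.6 CPM in young ones. The groups stayed apart, with a log2 fold change of -0.58 ± 0.11 (SE) at an edgeR adjusted p of 0.000762. Its partner, from 53938229 to 53939543, had a log2 fold change of -0.57 ± 0.11 and means of 27.2 ± 3.57 and 40.6 ± 3.79 CPM.

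Some other peaks of the repeated stretch did not pass the test. The pair at 53608141 and 53919309, whose counts are given above, had log2 fold changes of -0.01 ± 0.10 and 0.03 ± 0.10 (SE) with overlapping groups. Its means were 36.2 ± 5.06 CPM in old libraries and 36.5 ± 1.64 CPM in young ones for the first peak, and 36.9 ± 3.98 and 36.3 ± 1.96 CPM for the second.

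Outside the pairs, the largest fall among tested Tcra/Tcrd peaks was at the peak from 53402537 to 53402968. It had 1.02, 1.26, 1.85 and 1.86 CPM in old libraries and 4.66, 4.21, 6.00 and 6.25 CPM in young ones, with no overlap. The log2 fold change came to -1.79 ± 0.31 (SE), with an edgeR adjusted p of 0.000447. Its old counts of 4, 6, 8 and 9 were all below the filter count of 10. It was thus tested only through the young libraries, where it was higher, and these values are given as a description. At the peak from 53666671 to 53667049, young libraries had 7.56 ± 0.818 CPM and old ones 2.98 ± 0.750 CPM, which is a log2 fold change of -1.33. Old replicate 4 kept to the old side at both peaks, at 1.86 and 3.31 CPM.

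A few Tcra/Tcrd peaks opened. The largest rise was at the peak from 54253436 to 54253697, which had 4.07, 2.73, 5.30 and 3.51 CPM in old libraries and 0.933, 0.842, 1.5 and 1.72 CPM in young ones. It was weak, and its log2 fold change came to 1.62 ± 0.36 (SE), with an edgeR adjusted p of 0.00330. Counts there were 16, 13, 23 and 17 in old libraries and 4, 4, 6 and 8 in young ones. With a filter count of at least 10, the peak was tested only through the old libraries, where it was higher. Its p and the lack of overlap between its groups are therefore given as a description. The other 4 peaks that rose had log2 fold changes of 0.56 to 0.86.

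At the far end of the Tcra/Tcrd window lay its strongest peak, from 54846719 to 54848132, where the groups overlapped. Old libraries had 103, 97.6, 100 and 96.7 CPM and young ones 102, 89.4, 101 and 103 CPM. Its log2 fold change came to 0.01 ± 0.06 (SE), with an edgeR adjusted p of 0.963. Close by, the called peak from 54852574 to 54853626, which was looked up after its values were seen, fell from 41.8 ± 4.87 to 30.4 ± 2.98 CPM, a log2 fold change of -0.47 (SE 0.10) at an edgeR adjusted p of 0.00288. As background, the Tcra constant region lies at this end of the locus, and Dad1 follows it.

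**Figure D4:**
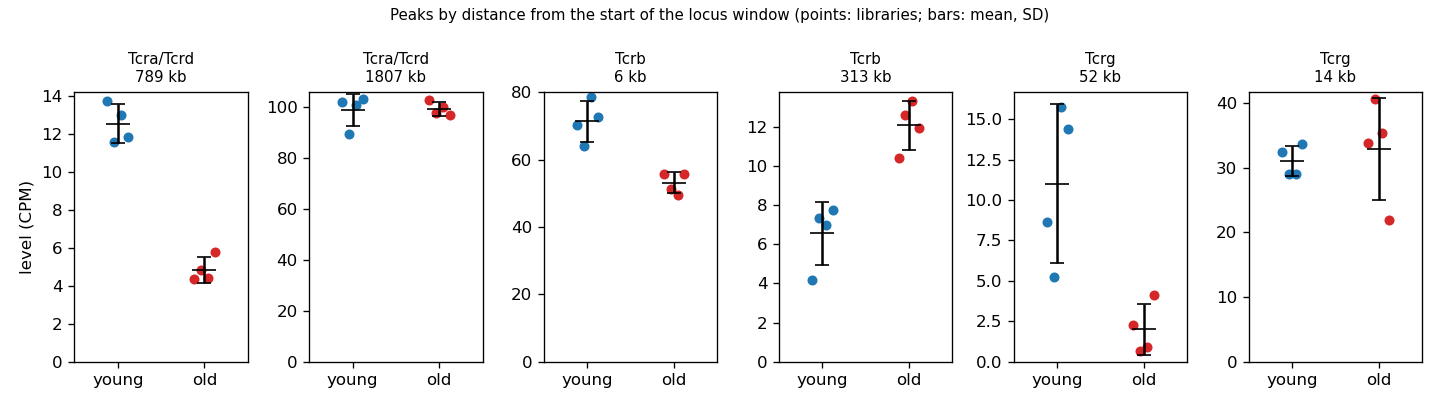
Levels in CPM (y axis, from 0) of 6 named peaks in young and old libraries, each titled by its locus and its distance in kb from the start of the locus window; points are single libraries, the horizontal mark is the mean and whiskers are SDs. The peaks are the one with the smallest p and the strongest of Tcra/Tcrd and of Tcrg, and the ones with the smallest p and the largest rise in Tcrb. The groups overlapped at the strongest Tcra/Tcrd and Tcrg peaks and were apart at the other 4.

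In Tcrb, whose V segments lie ahead of paired D, J and C clusters, 3 of 24 tested peaks were lower and 3 higher. Each is 12.5%, near the shares over all tested peaks. The strongest peak of the window, at its very start from 40840616 to 40842116, had 55.8, 51.3, 49.6 and 55.8 CPM in old libraries and 70.4, 64.0, 78.8 and 72.6 CPM in young ones. The groups were apart and the log2 fold change came to -0.43 ± 0.08 (SE), with an edgeR adjusted p of 0.000556. This peak took more of the locus level than any other, and RefSeq places Moxd2 just ahead of Tcrb. Whether the peak lies in a receptor segment was not analysed here.

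Among Tcrb peaks that rose, the one from 41147316 to 41147739 had 10.4, 12.6, 13.4 and 11.99 CPM in old libraries and 4.2, 7.36, 7 and 7.75 CPM in young ones. All old libraries lay above all young ones, with a log2 fold change of 0.87 ± 0.20 (SE) at an edgeR adjusted p of 0.00398. The nearby peak from 41151711 to 41152141 rose from 7.02 ± 2.41 to 11.96 ± 2.25 CPM (log2 fold change 0.76), with young replicate 2 at 10.3 CPM inside the old range. Its call was lost when old replicate 2, old replicate 3, young replicate 1 or young replicate 4 was left out (edgeR adjusted p = 0.0612, 0.0677, 0.0701 and 0.0630).

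The peak from 40976932 to 40977500 had means of 10.2 ± 3.30 CPM in old libraries and 6.05 ± 1.17 CPM in young ones (edgeR adjusted p = 0.0323). Old replicate 4 had 5.79 CPM there, within the young range of 4.52 to 7.36 CPM. This call was lost in 6 of the 8 fits that left out a library, being kept only without old replicate 4 or young replicate 2. It was also lost with DESeq2 (adjusted p = 0.0665) and limma voom (adjusted p = 0.0615).

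At the far end of Tcrb, the mean level at the peak from 41467971 to 41468457 dropped from 9.57 ± 1.40 to 5.83 ± 0.852 CPM, with no overlap and a log2 fold change of -0.72 ± 0.21 (SE) at an edgeR adjusted p of 0.0166. Without young replicate 1 its adjusted p was 0.0558 (edgeR), and with DESeq2 it was 0.0548. The weak peak from 41508337 to 41508583 had 1.64 ± 0.907 CPM in old libraries and 3.70 ± 0.970 CPM in young ones, and its groups overlapped. Its call (edgeR adjusted p = 0.0331) was lost without old replicate 2 or 3 or without young replicate 1, 3 or 4, at adjusted p values of 0.0667 to 0.120, and with DESeq2 (adjusted p = 0.0943). Next to it, the peak from 41504333 to 41505258 had means of 9.64 and 12.97 CPM in old and young libraries (edgeR adjusted p = 0.104), and among the fits run it passed the threshold only without old replicate 4 (edgeR adjusted p = 0.0245). The second strongest Tcrb peak, from 41068224 to 41069088, had 15.1 ± 2.23 and 15.2 ± 2.74 CPM and a log2 fold change of 0.00 ± 0.17. No peak lay in the 181394 bases between 41227805 and 41409199.

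In Tcrg, which is made of several small V, J and C clusters, 1 of the 6 tested peaks was called (16.7%), and it was lower. Over all tested peaks 20.5% were called in either direction and 10.4% were lower. On chromosome 13 from 19311251 to 19312125, old replicates 1 to 4 had 2.29, 0.631, 0.923 and 4.14 CPM, and young replicates 1 to 4 had 8.63, 5.26, 15.8 and 14.4 CPM. Young replicates 1 and 2 were well below the other young libraries but above every old one, and old replicate 4 was the highest old library. The log2 fold change came to -2.43 ± 0.50 (SE), with an edgeR adjusted p of 0.00706, larger in size than that of any other tested member. Old counts were 9, 3, 4 and 20 and young counts 37, 25, 63 and 67. With a filter count of at least 10, the peak was thus tested through the young libraries, where it was higher. These values are given as a description. Without this peak, the ratio of the summed Tcrg level, old over young, was 0.863 in place of 0.766.

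The other tested Tcrg peaks did not pass the test. The strongest, from 19273755 to 19274668, had 33.9, 40.6, 35.3 and 21.9 CPM in old libraries and 32.4, 29.0, 29.0 and 33.6 CPM in young ones. Old replicate 4 was the lowest of the 8 libraries there, and the log2 fold change was 0.08 ± 0.15 (SE). The peak from 19269537 to 19269986 had 5.48 ± 1.18 against 7.37 ± 1.55 CPM (edgeR adjusted p = 0.224). The largest positive fold change in Tcrg, 0.22 ± 0.33, was at the peak from 19328219 to 19328586.

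In fixed windows of 100000 bases, more windows of the first part of Tcra/Tcrd than of its last part were lower. Counts of all peaks were summed in windows along every chromosome and tested together, and 17 tested windows lay inside Tcra/Tcrd, 5 inside Tcrb and 1 inside Tcrg. Windows crossing an edge of a locus are not given, so peaks near the edges are not covered. Of the 17, 12 were lower and 0 higher in old libraries, where 14.7% of all tested windows were lower and 14.4% higher, or 29.1% in either direction (edgeR, adjusted p below 0.05). At an unadjusted p below 0.05, 0 were higher as well, and no alternative fit run on windows called one higher. The 9 windows from 53100001 to 54000000 were all lower, while 3 of the 8 from 54000001 to 54800000 were. The number of lower windows over the 3 loci was 13, but 8 without old replicate 1 and 7 without old replicate 3. Over the whole genome lower windows also dropped in these fits, from 2466 to 1725 and 1645.

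The window starting at 53800001 had 20.8, 25.7, 22.8 and 27.8 CPM in old libraries and 51.5, 43.6, 51.9 and 54.9 CPM in young ones. The groups did not overlap, with a log2 fold change of -1.05 ± 0.11 (SE) at an edgeR adjusted p of 3.20e-06. The windows starting at 53500001 and 53400001 fell by 0.86 and 0.89 on the log2 scale, and repeated peaks link the windows from 53400001 to 53700000 with those from 53700001 to 54000000, so these calls are not independent of each other. Away from the repeat, the window starting at 54400001, with 3 peaks, fell from 19.4 ± 1.26 to 9.53 ± 3.31 CPM. Old replicate 4 was its highest old library at 13.99 CPM, still below the lowest young one at 17.6 CPM. At the far end, the window starting at 54700001 had 41.2 ± 4.18 and 41.7 ± 4.06 CPM and a log2 fold change of -0.01 ± 0.10.

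**Figure D5:**
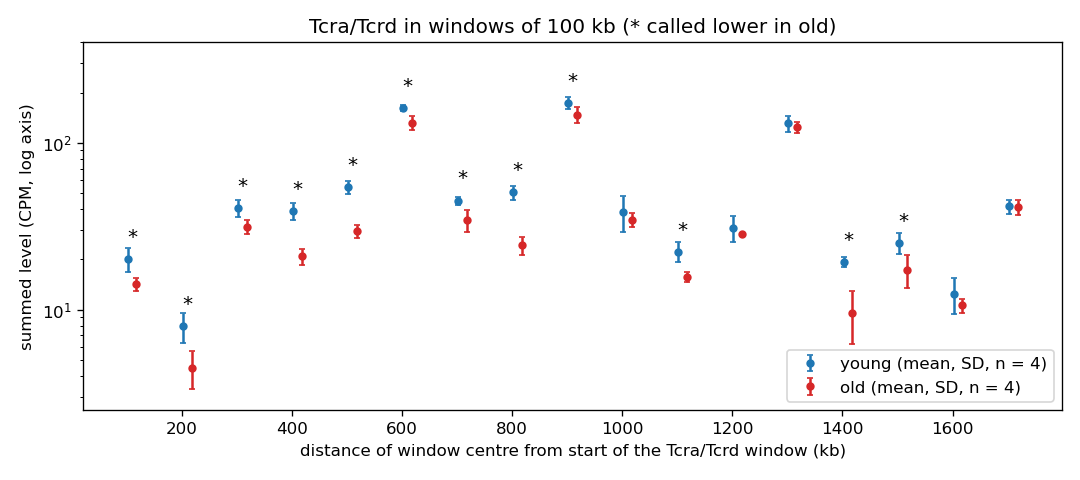
Summed level of 100 kb windows inside Tcra/Tcrd (y axis, CPM, log scale) against the distance of their centre from the start of the locus window (x axis, kb), as mean and SD of 4 young (blue) and 4 old (red) libraries; asterisks mark the 12 windows called lower in old. The largest gap is at the window starting at 53800001, and the last window shows 41.2 and 41.7 CPM.

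Of the 5 Tcrb windows 0 were called (edgeR), also at an unadjusted p below 0.05, and their log2 fold changes ran from -0.18 to 0.07. These windows lay between 40900001 and 41500000. The strongest Tcrb peak, starting at 40840616, and the weak peak starting at 41508337, both called lower, were outside them. The window that lies inside Tcrg, starting at 19300001, fell from 23.7 ± 8.52 to 9.17 ± 2.83 CPM, a log2 fold change of -1.37 ± 0.28 (SE) at an edgeR adjusted p of 0.00285. It holds the Tcrg peak that fell. The 6 other peaks of this window together had 7.81 ± 1.83 CPM in old libraries and 13.8 ± 4.02 CPM in young ones, and young replicate 2, at 9.68 CPM, was next to old replicate 1, at 9.67 CPM.

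The regions beside Tcra/Tcrd had ratios closer to 1 than the locus itself, with overlapping groups. The stretch of equal length before it had a ratio of old to young of 0.984. There 3 of 91 tested peaks were lower (3.30%) and 5 higher (5.49%), against 10.4% and 10% of all tested peaks. The stretch after it had 1.02, with 13 of 148 lower (8.78%) and 9 higher (6.08%). Ratios closer to 1 than in the locus were not seen on both sides of the other loci. The stretch before Tcrb had a ratio of 0.919 with the groups apart, close to the 0.911 of Tcrb itself, and the stretch after it had 1.11. The stretch before Tcrg, with only 4 weak peaks, had 0.584, further from 1 than the 0.766 of Tcrg, and the stretch after it had 1.06. Members had a median width of 367 bases against 407 in the whole table, and a median mean level of 2.25 against 2.76 CPM. Among antigen receptor loci, a window around the immunoglobulin heavy chain locus (Igh, chromosome 12, peaks from 114401645 to 117294906) had a ratio of 0.686, with the groups apart. In it 38 of 89 tested peaks were lower (42.7%) and 0 higher, against 10.4% and 10% of all tested peaks. A window around the kappa light chain locus (Igk, chromosome 6, peaks from 67515551 to 70681199) held 23 peaks. Its ratio was 0.917 with overlapping groups, and 1 of 9 tested peaks was lower (11.1%) and 0 higher. These ratios were set side by side without a test of their difference.

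Some peaks elsewhere in the genome followed the summed loci across the 8 libraries. The closest to Tcra/Tcrd lay on chromosome 7 from 20185680 to 20186494 (Pearson r = 0.991 of log2 CPM over 8 libraries), chromosome 1 from 182917675 to 182918351 (r = 0.990) and chromosome 3 from 97627751 to 97628948 (r = 0.986). For Tcrb the closest was on chromosome 16 from 94032010 to 94032981 (r = 0.986), and for Tcrg on chromosome 3 from 89676098 to 89676643 (r = 0.975). These are the highest of 73026 peaks compared and include the difference between the groups, so they are a description. An r of 0.9 or more was reached by 1268 peaks (1.74%) with Tcra/Tcrd, 151 (0.207%) with Tcrb and 140 (0.192%) with Tcrg.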

How the data were processed

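Libraries followed the Omni-ATAC protocol with a Nextera kit, per the labels' protocols. What the authors deposited is 1 table of raw counts for a common set of peaks, in whole numbers. The submitters' processing notes name Bowtie2, MACS2, Picard, SAMtools, FastQC and Trim Galore, with mm9 as the build and no version for any tool. The sources used here do not state how peaks were merged, how reads were counted or shifted, or how reads with several matches were handled. The last step can change levels over repeated V segments.

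The filterByExpr filter (count of at least 10, total of at least 15) left 73164 peaks with 94.2% of counts. CPM used TMM factors, and correlations used log2 CPM with prior count 2. The test was edgeR 4.0.16 (R 4.3.3), quasi-likelihood with a robust fit and group as its term. P-values were adjusted over the whole table. Variation between libraries, as the edgeR biological coefficient of variation, was 0.114, and it may be technical. SEs were derived from the test statistic. The fit was also run on simulated counts, and the outcome is not given here. These counts were drawn independently for each peak and library, so they cannot speak to the repeated pairs or to technical replicates.

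The members and lists were chosen with earlier results of these data known. Named peaks are, per locus, all called ones or the 6 with the smallest p, the 3 strongest, and the largest fold change each way. Windows, and the peaks said to be so, were picked after seeing values. Replicate numbers come from titles alone. Deviations of libraries with the same number correlated at -0.01 to 0.18, so the numbers were not taken to pair libraries. Alternatives were DESeq2 1.42.0 size factors and test, total count scaling, no count filter, limma 3.58.1 voom, a replicate block and each library left out. Summing repeated pairs and an adjusted p below 0.01 were added after the data were seen.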

Additional observations from a re-analysis of the deposited data

Results flagged for a closer look

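The 4 values of each group were examined in 96 cases for 1 value distant from its neighbours, and 3 cases were found. About 1 in 20 cases, here 4.8, would be found by chance. Old replicate 4 was highest of the old libraries in the Tcra/Tcrd window starting at 53100001, at 16.0 CPM against 13.4 to 13.8 CPM. It was lowest of them in the Tcrb window starting at 41400001, at 16.0 CPM against 21.3 to 22.3 CPM. Young replicate 3 was highest of the young libraries in the Tcra/Tcrd window starting at 54200001, at 39.1 CPM against 27.8 to 28.4 CPM.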

How the results depend on the processing

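The count of members called lower (28) stayed within 1.5 times under scaling by DESeq2 size factors or total counts, the DESeq2 test, limma voom, the replicate block (31) and summed repeated pairs (25), and rose to 45 with no count filter. With a library left out it ran from 25 to 41. The count called higher (8) was 4 with the DESeq2 test and 2 at an adjusted p below 0.01, and ran from 3 to 9 with a library left out. The replicate block gave 10 higher and changed no named peak's call. Windows called lower (13) ran from 7 to 13 with a library left out. Ratios of locus levels moved by less than the replicate spread under every alternative run for them. Of the 36 calls, 27 were shared by the DESeq2 test and 34 by limma voom. Among named peaks, directions turned only at 5 that were not called, and the cause was not tested. Values are log2 fold changes. The peak on chromosome 14 from 53608141 to 53608630 had 0.025 with no filter, 0.0074 with pairs summed and -0.10 to 0.067 with a library left out. The peak on chromosome 14 from 53919309 to 53919795 had -0.0027 with total counts and -0.038 to 0.086 with a library left out. The peak on chromosome 14 from 54846719 to 54848132 had -0.023 with total counts and -0.044 to 0.028 with a library left out. The peak on chromosome 6 from 41068224 to 41069088 had 0.034 with no filter, 0.017 with limma voom, 0.0030 with the replicate block and -0.079 to 0.096 with a library left out. The peak on chromosome 13 from 19273755 to 19274668 had -0.030 to 0.25 with a library left out.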

Other observations

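In 3 members, chosen after their values were seen, young replicates 1 and 2 were near 0 while young replicates 3 and 4 were not. None had passed the count filter. On chromosome 13 from 19448007 to 19448492, at the far end of the Tcrg window, young replicates 1 to 4 had 0, 0, 14 and 19 counts and old replicates 1 to 4 had 6, 5, 5 and 5. The peak from 19449105 to 19449531 had 0, 0, 6 and 14 counts in young and 4, 7, 4 and 5 in old libraries. In Tcra/Tcrd, the peak on chromosome 14 from 53160200 to 53160726 had 1, 0, 19 and 35 counts in young and 9, 4, 7 and 1 in old libraries. A like pattern was counted over all 126871 peaks. It took at most 1 count in young replicates 1 and 2 and at least 6 in young replicates 3 and 4. There were 28 such peaks (0.0221%), these 3 among them. The limits match the values of these 3 members, so a share among the members is not set beside this one. The 2 Tcrg peaks also lie next to each other. The Tcrg peak that fell, from 19311251 to 19312125, was also lower in young replicates 1 and 2 (37 and 25 counts) than in young replicates 3 and 4 (63 and 67 counts).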
